A study of Homo sapiens with 28 samples.

Results

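The 9 genes described here encode subunits of Polycomb repressive complex 2 (PRC2), namely EED, EZH2, EZH1, SUZ12, RBBP4, JARID2, AEBP2, PHF19 and MTF2. They were chosen by name, out of 19817 protein-coding genes of the RefSeq annotation, and each was read with 20 kb on either side in 12 peak lists. The lists map H3K36me2, H3K27me3 and H3K27ac by ChIPmentation, in which a transposase adds sequencing adapters to immunoprecipitated chromatin. TKO is a derivative of the multiple myeloma line KMS-11 whose labelled genotype is WHSC1(+/-), WHSC1 being an older name of NSD2. All 4 conditions are this line, expressing NSD2 with the D1240A exchange, NSD2 with the F1295A exchange or wild type NSD2 (WT), or left as TKO. The comparison asks how these exchanges may alter chromatin marks. The genotype leaves TKO cells with 1 NSD2 allele, so TKO is not a state without NSD2, and the labels give neither the level of the added NSD2 nor whether a line is 1 clone. H3K27ac peaks stood at an end of 7 of 9 plasma cell markers in each list, with SDC1 and CD38 as the exceptions. At markers of other cells they stood, in every list, at 1 of 5 B cell genes (BCL6), 2 of 4 T cell genes (CD3E and CD2) and 0 of 4 myeloid genes, and at EPCAM among 4 epithelial genes in all lists but that of TKO. Among all genes the share with such a peak was 57.9% (WT) to 59.1% (D1240A), and the marker counts were not tested against it.

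PRC2 places methyl groups on lysine 27 of histone H3, and its end product H3K27me3 marks silent developmental genes. EZH2 and EZH1 are the alternative catalytic subunits, EED reads H3K27me3 and stimulates the enzyme, SUZ12 is the scaffold, and RBBP4 binds histones. JARID2 and AEBP2 belong to one form of the complex and the Polycomb-like proteins PHF19 and MTF2 to another. NSD2 makes H3K36me2, a mark known to hinder PRC2 on the same histone tail, and it is overproduced in myelomas with the t(4;14) translocation that KMS-11 carries. H3K27ac lies on the lysine that PRC2 methylates and marks active promoters and enhancers.

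Each list came from 1 peak calling run on both replicates of a condition. There was thus 1 list per condition and mark, with no replicate error, and no difference below has a significance test. The H3K36me2 lists rest on 64588375 fragments in D1240A, 69211726 in F1295A, 62550152 in WT and 69008405 in TKO. WT thus had the fewest fragments, and also the highest share of duplicates for this mark, 77%. The part of depth in the H3K36me2 coverage below was not tested. For H3K27me3 the range was 31097592 to 44812488, and the H3K27ac lists had between 67939521 and 73613753. H3K36me2 peaks spanned 77.1 Mb in D1240A, 94.3 Mb in F1295A, 73.0 Mb in WT and 94.3 Mb in TKO, so the lists themselves differ in length, and a value from lists of equal length is given where it changes a call. H3K27me3 peaks spanned 63.7 Mb in D1240A, 64.0 Mb in F1295A, 70.2 Mb in WT and 73.7 Mb in TKO. None of the 9 genes lay in any of the 93 blocks of 1 Mb in which every list covered at least 10% of the bases.

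The RefSeq promoters of EED and RBBP4, 250 bases before the start site to 50 after it (GRCh38.p14), are shown because EED was the gene with a called H3K36me2 difference and RBBP4 had the highest H3K27ac peak. The EED promoter is chr11:86244503-86244802 and the RBBP4 promoter chr1:32650958-32651257, both on the plus strand and written 5′ to 3′. Capitals mark the letters CCAAT on either strand (ATTGG is the reverse complement).
EED: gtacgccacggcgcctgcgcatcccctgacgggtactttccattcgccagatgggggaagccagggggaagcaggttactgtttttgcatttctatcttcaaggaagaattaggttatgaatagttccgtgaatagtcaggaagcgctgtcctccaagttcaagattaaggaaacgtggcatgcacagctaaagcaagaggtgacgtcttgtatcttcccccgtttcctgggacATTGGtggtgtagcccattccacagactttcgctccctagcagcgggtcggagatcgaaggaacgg
RBBP4: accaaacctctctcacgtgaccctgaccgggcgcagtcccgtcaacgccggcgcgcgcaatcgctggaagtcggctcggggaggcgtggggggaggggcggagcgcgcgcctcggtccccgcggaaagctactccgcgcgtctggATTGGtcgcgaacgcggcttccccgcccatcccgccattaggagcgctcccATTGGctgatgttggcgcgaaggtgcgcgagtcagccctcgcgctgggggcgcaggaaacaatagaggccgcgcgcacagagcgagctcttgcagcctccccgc
The match in EED began 16 bases upstream of the start site, and those in RBBP4 began 105 and 54 bases upstream. The EED promoter held 16 CG pairs and was 52.3% G or C, the lowest of the 13 promoter entries of these genes, while that of RBBP4 held 42 CG pairs and was 70.3% G or C. Over all 22155 RefSeq promoters the medians were 21 CG pairs and 62.3%. Both promoters were wholly covered by an H3K27ac peak in all 4 lists.

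Of 10 motifs searched on both strands in windows of this size, CCAAT was found in 8 of the 13 promoter entries, those of EED, EZH2, JARID2, PHF19, RBBP4 and SUZ12, and in 34.6% of all promoters. Among letters bound by E2F, a family that drives S phase genes, TTTCCCGC was in 1 promoter each of MTF2, PHF19 and SUZ12 and in 1.995% of all promoters, and TTTGGCGC in 1 promoter of EZH2 and in 0.82% of all. JARID2 held the TATA box letters TATAAA, present in 9.47% of all promoters, and the cyclic AMP response letters TGACGTCA, present in 2.26%. The letters GGCGGGAA and TTTCGCGC, also of E2F, and CCGGAAGT, of the ETS family, were in none of the 13 entries and in 3.99%, 0.71% and 5.34% of all promoters. Longer motifs of NRF1 and YY1 were likewise in none, and in 1.503% and 1.18% of all. TTTCCCGC and GGCGGGAA can match overlapping letters on opposite strands, and a match is a description of letters only.

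EED was the PRC2 gene most covered by H3K36me2. The gene lies on chromosome 11 from 86244753 to 86287615 on the plus strand. After peaks less than 1 kb apart were merged, they covered 30.6% of its body in D1240A, 35.1% in F1295A, 14.5% in WT and 57.3% in TKO. WT thus had the lowest and TKO the highest value, with both mutant forms between them. These values are shares of bases past the peak threshold, which was set against 1 background constant of each list without a control. They are not a measured amount of H3K36me2, and whether its amount over EED differed was not tested. In WT against TKO the difference was -42.8 percentage points. A gene was called at a difference of at least 25 points, and EED was the 1 of the 9 PRC2 genes called lower. Of 18607 genes of at least 2 kb, 2.47% were called lower and 0.167% higher. EED was far out in this distribution, with 0.67% of genes showing a lower difference. However, 52.4% of all genes differed by 0, so the rank partly reflects that EED was covered at all. PICALM, the gene before EED, differed by -45.5 points. The call ended when the longer TKO list was cut to its highest peaks, to a covered length equal to that of WT. EED then had 14.5% in WT and 37.1% in TKO, a difference of -22.6 points. It also ended when 20 kb flanks were added to the body, at -20.6 points.

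No PRC2 gene was called for H3K36me2 in the mutant comparisons. In D1240A against WT, 0 of the 9 were called, where 0.876% of all genes were called higher and 0.145% lower. The EED difference there was 16.1 points, above that of 98.3% of genes, though 59.1% of all genes differed by 0. In F1295A against WT, 0 of 9 were called, against 2.19% of all genes called higher and 0.0484% lower. Here EED differed by 20.5 points, above 97.2% of genes, though 55.0% of all genes differed by 0. With 20 kb flanks the EED difference in D1240A against WT was 3.69 points. WT enters all 3 comparisons, so their values are not independent.

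**Figure D1:**
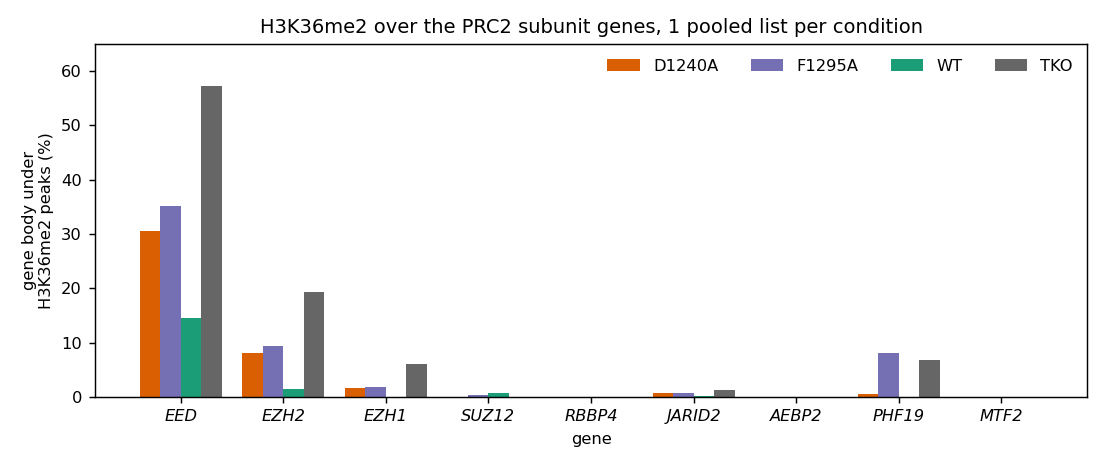
Percent of each gene body under merged H3K36me2 peaks (vertical axis) for the 9 PRC2 genes (horizontal axis), with 1 bar per condition and no error bars, since each condition has 1 list. EED stands highest, at 30.6% in D1240A, 35.1% in F1295A, 14.5% in WT and 57.3% in TKO, and EZH2 follows with the same order of conditions.

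The H3K36me2 over EED was made of many low peaks. The body held 16 peaks in D1240A, 16 in F1295A, 10 in WT and 22 in TKO. Their median pileup, the number of fragments at the summit, was 20 in D1240A, 20.5 in F1295A, 17 in WT and 20.5 in TKO, and the lowest pileup in each list was 14. The highest EED peak reached 27 fragments in D1240A, 25 in F1295A, 26 in WT and 27 in TKO, with an exact 95% Poisson interval of 17.8 to 39.3 for 27 fragments, which covers counting error only. So the lists differed in how much of EED passed the peak threshold. The highest peak lay at the same place in WT and TKO, and elsewhere in D1240A and F1295A. These heights are maxima over peaks past the threshold, from lists of unequal depth, and a difference in height was not tested. Of the 10 WT peaks, 7 overlapped a TKO peak, and of the 22 TKO peaks, 8 overlapped a WT peak. By bases, 6.10 kb of EED lay under peaks in TKO alone and 1.48 kb in WT alone. The stretch under peaks in D1240A, F1295A and TKO but not in WT was 3.76 kb, or 8.76% of the gene, and that under peaks in all 4 conditions 0.92 kb. In TKO a run of peaks began within 6 kb of the start of EED, where D1240A and F1295A also had peaks and WT had none, and a further dense run lay near the end of the gene, between 33 and 42 kb.

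**Figure D2:**
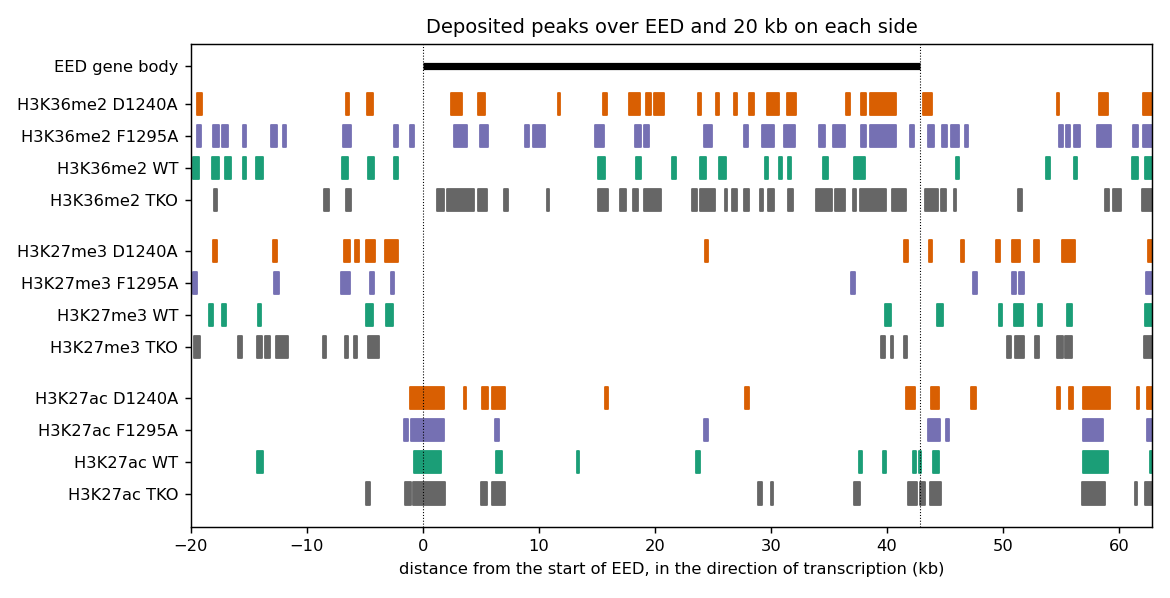
Peaks as deposited over EED, with the gene body as a black bar and distance from its start in kb on the horizontal axis, and 1 row per mark and condition. H3K36me2 peaks fill the body most densely in TKO and least in WT, H3K27me3 lies mainly outside the gene, and a single H3K27ac peak at the start is in all 4 conditions.

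Outside the gene the order of conditions was another. In the 20 kb upstream of EED, H3K36me2 covered 6.6% in D1240A, 22.7% in F1295A, 26.2% in WT and 5.7% in TKO. WT was highest here and TKO lowest, the opposite of the gene body. H3K27me3 in the same stretch covered 27.1% in D1240A, 11.1% in F1295A, 14.2% in WT and 34.98% in TKO. F1295A and WT had the higher H3K36me2 and the lower H3K27me3, and D1240A and TKO the reverse. Downstream, H3K36me2 covered 13.1% in D1240A, 40.6% in F1295A, 12.7% in WT and 26.6% in TKO, and H3K27me3 covered 18.1% in D1240A, 9.2% in F1295A, 15.1% in WT and 19.1% in TKO. Few H3K27me3 peaks make up these values, as 20 kb is a short stretch. Both flanks together held 13 in D1240A, 9 in F1295A, 11 in WT and 15 in TKO. Without merging, H3K27me3 covered 17.4% of the upstream stretch in D1240A, 11.1% in F1295A, 10.1% in WT and 22.8% in TKO. These orders of conditions in the flanks were noticed after the values had been seen. Over EED and its flanks, 82.9 kb in all, peaks of both marks shared 1.55 kb in D1240A, 1.41 kb in F1295A, 1.27 kb in WT and 2.05 kb in TKO.

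EED lies in a neighbourhood where peaks of all 3 marks covered more than in the median 1 Mb block. In the 1 Mb around it, H3K27me3 peaks covered 3.9% in D1240A, 3.1% in F1295A, 5.98% in WT and 8.8% in TKO. The H3K27me3 medians over all blocks were 0.20% in D1240A, 0.19% in F1295A, 0.23% in WT and 0.28% in TKO. H3K27ac peaks covered 6.6% (TKO) to 7.5% (WT), beside medians of 1.7% (WT) to 1.8% (TKO). H3K36me2 peaks covered 13.5% in D1240A, 22.2% in F1295A, 10.9% in WT and 15.7% in TKO. Their medians over all 1 Mb blocks were 0.38% in D1240A, 0.46% in F1295A, 0.31% in WT and 0.53% in TKO. PICALM, the clathrin assembly gene before EED, was covered over 38.7% in D1240A, 53.8% in F1295A, 13.2% in WT and 58.7% in TKO. HIKESHI, the nuclear import carrier gene after it, was covered over 30.7% in D1240A, 61.5% in F1295A, 15.9% in WT and 36.6% in TKO. In these 3 gene bodies WT was lowest, but in HIKESHI F1295A and not TKO was highest. The 175 kb between PICALM and EED showed less difference between WT and TKO, at 34.0% in WT and 36.0% in TKO. D1240A had 40.0% there, and F1295A was highest at 60.1%. The H3K27me3 of this gap was 12.2% in D1240A, 8.4% in F1295A, 12.05% in WT and 29.6% in TKO. Further downstream, CCDC81 was covered by H3K36me2 over 8.9% in D1240A, 11.0% in F1295A, 14.98% in WT and 2.4% in TKO, so that TKO was lowest there. With the coverage of the surrounding 1 Mb taken off, a setting chosen after seeing the data, the EED difference was -37.3 points in WT against TKO, 12.5 points in D1240A against WT and 6.85 points in F1295A against WT.

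**Figure D3:**
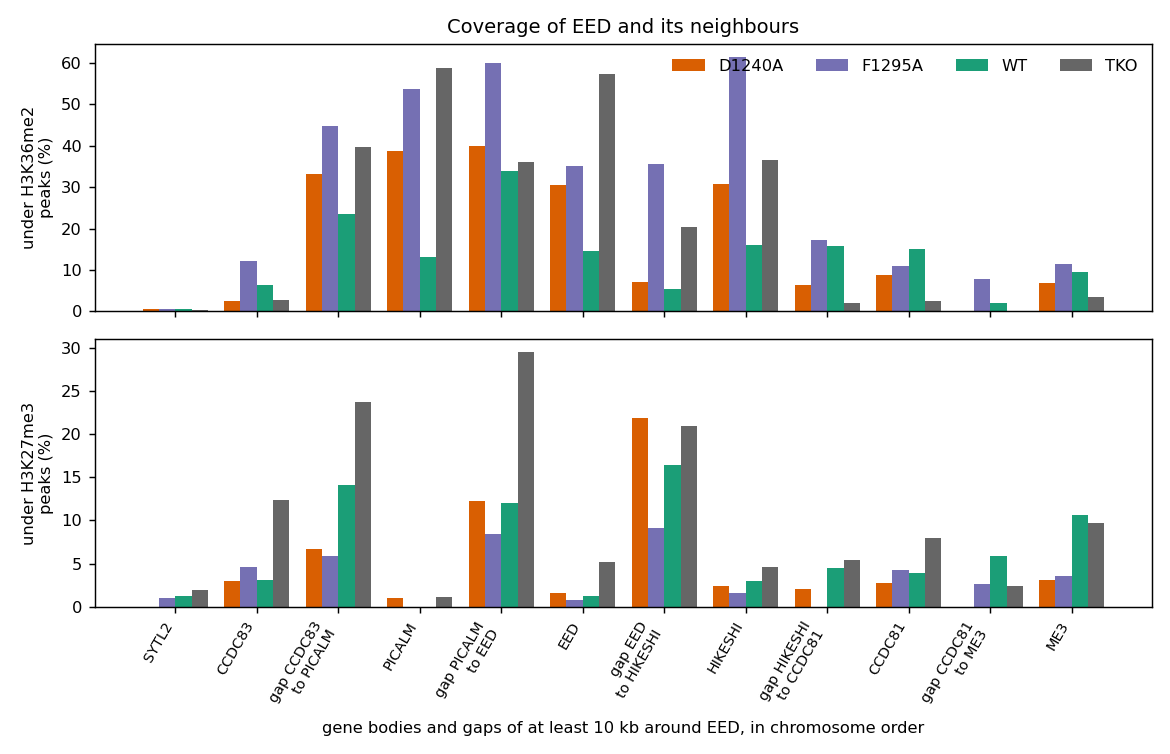
Percent of each gene body or gap of at least 10 kb around EED under merged H3K36me2 (top) and H3K27me3 peaks (bottom), in chromosome order, with 1 bar per condition and no error bars. PICALM, EED and HIKESHI have their lowest H3K36me2 in WT, and the 2 gaps before PICALM and EED have their highest H3K27me3 in TKO, at 23.8% and 29.6%.

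The genes most like EED in H3K36me2, by the distance between their 4 coverages among 14255 genes of at least 10 kb, were SMN1 (5.86 points away), HSD17B7 (6.01), RNF19A (6.04), SMN2 (10.4) and NIBAN1 (10.6). SMN1 was covered over 28.9% in D1240A, 31.9% in F1295A, 18.3% in WT and 54.5% in TKO. HSD17B7, a steroid dehydrogenase gene, had 30.8% in D1240A, 38.1% in F1295A, 13.2% in WT and 52.3% in TKO. SMN1 and SMN2 are near-identical copies whose reads cannot be assigned with certainty, and both lie in blocks covered by every list.

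Of the catalytic subunits, EZH2 carried the same order of conditions at a lower level, with peaks merged within 1 kb. It lies on chromosome 7 from 148807383 to 148884291 on the minus strand. H3K36me2 covered 8.1% of its body in D1240A, 9.4% in F1295A, 1.5% in WT and 19.3% in TKO. The body held 12 peaks in D1240A, 12 in F1295A, 3 in WT and 23 in TKO. The differences were -17.8 points in WT against TKO, 6.5 in D1240A against WT and 7.8 in F1295A against WT, all short of the limit, with 3.99% of genes lower than EZH2 in the first. The size of the EZH2 difference in WT against TKO depended on the setting. Merging within 3 kb put it past the limit at -52.0 points, with 1.5% in WT and 53.5% in TKO, while equal covered length gave -2.68 points, with 1.5% in WT and 4.2% in TKO, and a -log10 q of at least 5 gave -1.18 points. The order of conditions changed too. At equal covered length D1240A was highest, at 7.6%, and F1295A had 2.4%. At a -log10 q of at least 5 EZH2 had 3.6% in D1240A, 0.74% in F1295A, 0.51% in WT and 1.7% in TKO. Of the 3 WT peaks 2 overlapped a TKO peak, and of the 23 TKO peaks 2 overlapped a WT peak. The highest EZH2 peaks had 38 fragments in D1240A, 28 in F1295A, 25 in WT and 36 in TKO. CUL1, the cullin gene beside EZH2, showed 10.1% in D1240A, 14.2% in F1295A, 2.3% in WT and 26.0% in TKO.

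**Figure D4:**
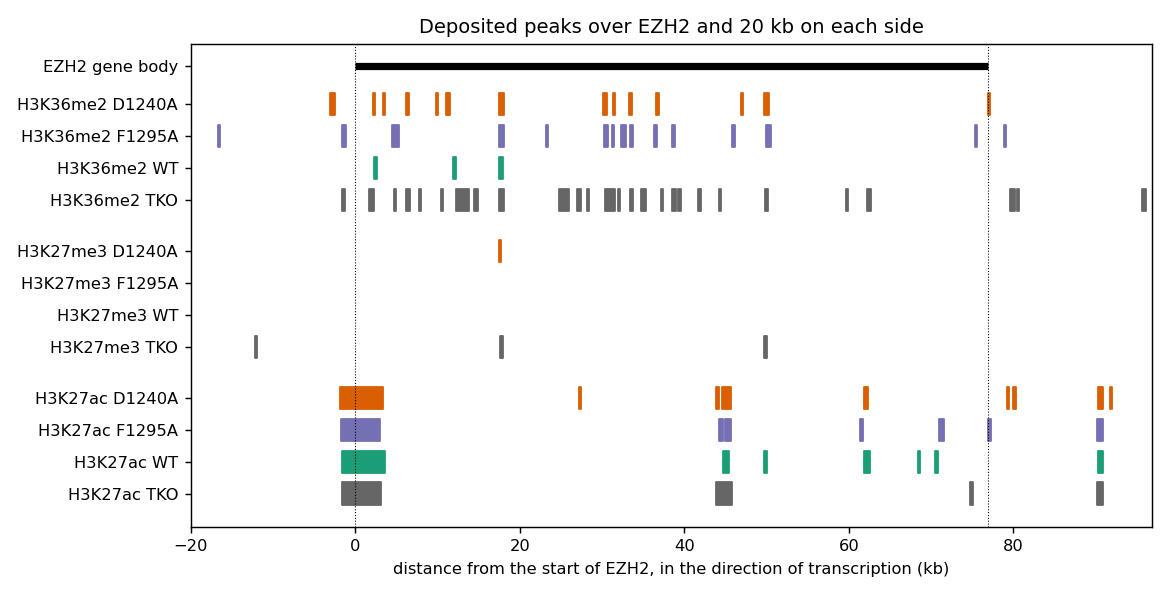
Peaks as deposited over EZH2, with the gene body as a black bar and distance from its start in kb, in the direction of transcription, on the horizontal axis, and 1 row per mark and condition. The body holds 12 H3K36me2 peaks in D1240A, 12 in F1295A, 3 in WT and 23 in TKO, while the H3K27ac peak at the start is present throughout.

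EZH1, the other catalytic subunit, lies on chromosome 17 from 42700275 to 42745040 on the minus strand. H3K36me2 covered 1.7% of its body in D1240A, 1.9% in F1295A, 0% in WT and 6.1% in TKO, from 2 peaks in D1240A, 1 in F1295A, 0 in WT and 4 in TKO, of at most 20 fragments each. The other core genes had next to no H3K36me2. SUZ12 (chromosome 17, 31937007 to 32001038, plus strand) was covered over 0% in D1240A, 0.36% in F1295A, 0.61% in WT and 0% in TKO. RBBP4 (chromosome 1, 32651208 to 32686211, plus strand) was listed at 0% in all 4. RBBP4 still had small H3K36me2 peaks upstream of its start, over 4.0% of the flank in D1240A, 0% in F1295A, 0% in WT and 4.3% in TKO.

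Among the accessory genes PHF19 was the most covered. It lies on chromosome 9 from 120855651 to 120904128 on the minus strand and was covered by H3K36me2 over 0.56% in D1240A, 8.0% in F1295A, 0% in WT and 6.7% in TKO. F1295A and TKO thus stood together above D1240A and WT, and 1.31 kb of PHF19 lay under peaks of F1295A and TKO only. Its values in F1295A and TKO exceeded the upper quartile of all genes, which was 1.89% in F1295A and 2.3998% in TKO. At a -log10 q of at least 5 PHF19 had 0.63% in F1295A, 0% in WT and 4.5% in TKO. JARID2 (chromosome 6, 15246069 to 15522042, plus strand), the longest of the genes, was covered over 0.74% in D1240A, 0.77% in F1295A, 0.10% in WT and 1.28% in TKO, an order that turned at equal covered length. AEBP2 (chromosome 12, 19404072 to 19522227, plus strand) and MTF2 (chromosome 1, 93079283 to 93139076, plus strand) were listed at 0% in every condition. A gene listed at 0 had no stretch past the peak threshold, which is not a measured absence of the mark.

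Over the 9 genes, WT was below TKO in 5, above it in 1 and equal at 0 in 3. The median difference was -1.18 points, beside a median of 0 over all genes, of which 37.8% were lower and 9.80% higher. In D1240A against WT 5 genes were above, 1 below and 3 at 0, with a median of 0.56 points. In F1295A against WT 5 genes were above, 1 below and 3 at 0, and the median was 0.67 points. Medians over all genes were 0 in both. Of all genes, 28.9% were above and 11.9% below in D1240A against WT. In F1295A against WT, 36.7% of all genes were above and 8.28% below. In the flanks, any H3K36me2 peak was found beside 5 of the 9 genes in D1240A, 4 in F1295A, 1 (EED) in WT and 5 in TKO. The share of all genes with a flank peak is not given here, so these counts have no background. The H3K36me2 lists held 99096 peaks in D1240A, 116725 in F1295A, 72582 in WT and 119446 in TKO.

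H3K27me3, the product of the complex, had any peak in the body of 2 of the 9 genes in D1240A, 1 in F1295A, 2 in WT and 3 in TKO. Among all genes the share was 20.9% in D1240A, 20.4% in F1295A, 23.1% in WT and 25.6% in TKO, so the 9 genes were near the background. In EED it covered 1.6% of the body in D1240A, 0.80% in F1295A, 1.2% in WT and 5.1% in TKO. The TKO value came from 3 small peaks joined by merging, was 1.9% without merging and 0.74% at equal covered length, where it lay below the 1.2% of WT. EZH2 had 0.32% in D1240A, 0% in F1295A, 0% in WT and 0.86% in TKO. Beyond these, JARID2 had 0.12% in TKO and PHF19 0.53% in WT, and the other 5 genes were listed at 0 in all 4 conditions. None of the 9 genes was called in any comparison. The shares of all genes called were 0.285% higher and 0.199% lower in WT against TKO, 0.0376% higher and 0.64% lower in D1240A against WT, and 0.0537% higher and 0.5% lower in F1295A against WT. No H3K27me3 peak lay within 1 kb of a RefSeq start site of any of the 9 genes.

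H3K27ac marked a RefSeq start of all 9 genes in all 4 conditions. EED had 1 peak over its start, with 308 fragments at the summit in D1240A (exact 95% Poisson interval 275 to 344), 299 in F1295A (266 to 335), 324 in WT (290 to 361) and 342 in TKO (307 to 380). The intervals, which cover counting error only, overlap. As the authors' fold enrichment, which is the pileup over 1 background constant of each list, these peaks stood at 49.6 in D1240A, 47.7 in F1295A, 49.1 in WT and 51.5 in TKO. They were higher than 98.3% to 98.8% of all peaks of their lists.

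The other catalytic and core genes also had high start peaks. EZH2 stood at a fold enrichment of 49.9 in D1240A, 47.5 in F1295A, 48.4 in WT and 49.2 in TKO, and SUZ12 at 39.0 in D1240A, 38.8 in F1295A, 36.7 in WT and 37.4 in TKO. RBBP4 had the highest peak and the widest range, with 363 fragments in D1240A (interval 327 to 402), 299 in F1295A (266 to 335), 430 in WT (390 to 473) and 391 in TKO (353 to 432). As fold enrichment this was 58.4 in D1240A, 47.7 in F1295A, 65.2 in WT and 58.8 in TKO. The F1295A interval lay below those of WT and TKO, but with the replicates pooled their spread is not known. Its WT peak was the highest and also the shortest, at 4.73 kb, against 6.54 kb in D1240A, 6.74 kb in F1295A and 7.72 kb in TKO. EZH1 stood lower at its start, at 26.2 in D1240A, 21.0 in F1295A, 20.7 in WT and 22.8 in TKO, and carried a second, wider peak of 7.18 to 7.68 kb that began about 35 kb into the gene. This second peak was higher than that at the start in every list, with 272 fragments in D1240A, 182 in F1295A, 230 in WT and 214 in TKO.

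Start peaks of the accessory genes followed. JARID2 reached 21.998 in D1240A, 20.5 in F1295A, 19.96 in WT and 23.6 in TKO, and its body held 7 peaks in D1240A, 7 in F1295A, 7 in WT and 9 in TKO. The JARID2 peak near 80 kb had 101 fragments in D1240A, 81 in F1295A, 129 in WT and 81 in TKO. MTF2 reached 15.7 in D1240A, 16.1 in F1295A, 16.6 in WT and 17.1 in TKO. AEBP2, the lowest of the 9, reached 14.3 in D1240A, 13.4 in F1295A, 10.4 in WT and 10.5 in TKO. PHF19 reached 36.0 in D1240A, 33.9 in F1295A, 32.8 in WT and 31.1 in TKO at the RefSeq start that lies 26.9 kb inside its annotated extent. At its other RefSeq start, 35.2 kb inside, it reached 5.46 in D1240A, 6.36 in F1295A, 4.84 in WT and 7.05 in TKO.

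**Figure D5:**
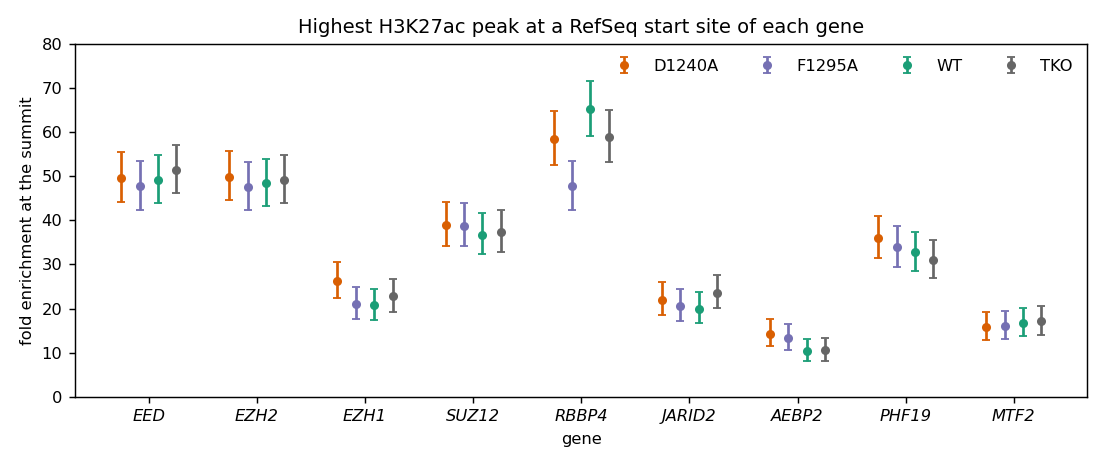
Fold enrichment at the summit of the highest H3K27ac peak over a RefSeq start site of each PRC2 gene (points), by condition, with the exact 95% Poisson interval of the pileup on the same scale (bars, counting error only). RBBP4 has the widest range of the 9 genes, 47.7 in F1295A and 65.2 in WT.

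By windows of 1 kb on either side of each annotated gene end, 7 of the 9 genes had an H3K27ac peak in every list, and among all genes the share was 59.1% in D1240A, 58.6% in F1295A, 57.9% in WT and 58.2% in TKO. The exceptions, AEBP2 and PHF19, have their RefSeq start sites inside the annotated extent. Taking both ends of a gene together, 0 of the 9 gained or lost such a peak in any comparison, while 1.53% of all genes gained and 1.82% lost one in WT against TKO, 2.17% gained and 1.02% lost one in D1240A against WT, and 1.81% gained and 1.12% lost one in F1295A against WT. At the 3′ end alone, EZH2 had a low peak in F1295A (2.70) and none in WT, and EZH1 one in D1240A (3.05) and none in WT.

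Other Polycomb genes were read in the same way. Of 6 further PRC2 partners, such as RBBP7 and LCOR, none was called for H3K27ac, and none of the 5 of at least 2 kb was called for H3K36me2 or H3K27me3. Among 23 genes of Polycomb repressive complex 1, which ubiquitinates histone H2A, RNF2 was called for H3K36me2, higher in F1295A against WT. Its difference was 26.2 points, just past the limit of 25, and 2.19% of all genes were called higher in this comparison. RNF2, a catalytic subunit, was covered over 10.9% in D1240A, 31.3% in F1295A, 5.2% in WT and 21.8% in TKO. PCGF2, a RING partner of RNF2, was called for H3K27ac in all 3 comparisons, since the WT list alone had no peak in its end windows. The PCGF2 peak was at a fold enrichment of 8.99 in D1240A, 2.86 in F1295A and 26.3 in TKO. The TKO peak overlapped a WT peak of 26.6 and the D1240A peak a WT peak of 5.29, both of which ended outside the windows. Among 11 genes of the H2A deubiquitinase PR-DUB and its partners, MBD6 was called higher for H3K36me2 in F1295A against WT. The share of all genes called there was the same 2.19%. MBD6 had 27.8% in D1240A, 68.8% in F1295A, 40.0% in WT and 62.6% in TKO, and it lies in a block covered by every list. None of the 4 genes for H3K27 demethylases and acetylases was called, and no gene of these lists was called for H3K27me3.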

How the data were processed

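H3K36me2, H3K27me3 and H3K27ac were profiled in 24 immunoprecipitates, 2 replicates per condition and mark, beside 4 inputs that are not analysed here. The build is GRCh38, and the tools, per the submitters' processing notes, included Bowtie2 2.4.5 and Trimmomatic 0.36, with FastQC 0.11.4 and MACS2 2.2.7.1. Per the file headers, both replicates entered 1 run per list, with paired-end fragments, no control, no local background, a q limit of 0.05 and a single fragment allowed at each position. Duplicates were 61% to 87% of the fragments. Of the deposited values, the pileup is a coverage signal at the summit, the fold enrichment divides that pileup, with 1 added, by a constant of each list, and the -log10 q values were used only to filter.

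Genes came from RefSeq GRCh38.p14, where 153 genes placed on scaffolds were left out. Peaks less than 1 kb apart were merged for coverage, and the call limit was 25 points of the gene body. H3K27ac windows reached 1 kb to each side of a gene end, with an overlap of at least 1 bp. With 1 list per condition no test was made. The 9 genes, the other gene lists and the limits were chosen with earlier results of these data known. All 9 genes are named, and of the other lists up to 4 called genes per mark, comparison and direction. Exons and introns were not read here, since the annotation table holds whole genes. Other merging distances, limits, windows, a -log10 q of at least 5 and equal covered length were tried. Calculations used pandas 2.3.3 and numpy 2.4.6 under Python 3.11.15, intervals SciPy 1.17.1 and figures matplotlib 3.10.9. The calling code was run on copies of the WT lists with planted changes. That run checks the code only, as it held no noise, depth difference or replicate spread.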

Additional observations from a re-analysis of the deposited data

How the results depend on the processing

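No paired analysis was possible because each deposited list pools both replicates, and for the same reason no replicate could be left out. Of 87 alternative values for counts over the PRC2 genes, 79 stayed within 1.5 times the count reported, and of 432 for single genes 425 kept their side of the limit. Many of these values had little or no room to move, so the totals say little about stability. RBBP4, AEBP2 and MTF2 had no H3K36me2 or H3K27me3 peak in their bodies in any list. Every count of called genes but that for H3K36me2 in WT against TKO was 0. In 8 of the 432 the difference turned sign, none of them a called one and each at most 3.96 points as reported. They were JARID2 H3K36me2 and EED H3K27me3 at equal covered length, in 3 and 2 comparisons, EED H3K27me3 relative to the surrounding 1 Mb in 2, and SUZ12 H3K36me2 with flanks in 1. For H3K36me2 in WT against TKO, where 1 PRC2 gene and 460 genes in all were lower, merging within 3 kb gave 2 and 958, a limit of 15 points 2 and 922, a limit of 50 points 0 and 77, equal covered length 0 and 180, and bodies with 20 kb flanks 0 and 257. The EED difference ran from -42.8 to -20.6 points over 9 settings and stayed negative, though the limits of 15 and 50 points leave the difference itself unchanged. A limit of 15 points gave 1 PRC2 gene, EED, in D1240A against WT, beside 342 genes in place of 163 in all, and 1, EED, in F1295A against WT, beside 777 in place of 407. In these comparisons the EED difference ran from 3.69 to 16.1 and from 6.85 to 20.5 points. With flanks of 50 kb, 4 PRC2 genes in place of 1 had an H3K36me2 peak beside them in WT, again without a share of all genes. For the H3K27me3 and H3K27ac calls of the 9 genes, the count stayed 0 under every alternative run. Depth limits the values over EED, whose median pileup was 17 to 20.5 fragments for H3K36me2, beside a list minimum of 14, and 11 to 13.5 for H3K27me3, beside minimums of 10 to 12.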

Other observations

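About 62 kb past the start of EED, inside HIKESHI, a narrow peak stood in all 12 lists. Its H3K36me2 pileup was 108 fragments in D1240A, 73 in F1295A, 109 in WT and 110 in TKO, well above the 25 to 27 fragments of the highest peaks in EED itself. Its H3K27me3 pileup was 29 in D1240A, 58 in F1295A, 69 in WT and 69 in TKO, and that of H3K27ac 24 in D1240A, 29 in F1295A, 25 in WT and 38 in TKO. Its part in the flank values of EED was not tested.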
